A study of Mus musculus with 4 samples.

Results

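The genes described here are 9 regulators and products of the dermomyotome and of early skeletal muscle, taken from progenitor to differentiated muscle: Pax3, Pax7, Eya1, Lbx1, Myf5, Myf6, Myod1, Myog and Acta1. They were found on the array through the RefSeq accession that the scanner files give for each probe. This gave 1 probe each for 8 of the 9 genes, out of 18224 genes with a named probe. No probe was named Lbx1, and that gene was not analysed here. All 8 genes with a probe were tested, among 13584 genes in all. RNA came from the posterior part of E9.5 mouse embryos of 2 genotypes, Jmjd3-/- (numbered 1 and 9) and wild-type (numbered 3 and 4), 2 samples each, bred by crossing Jmjd3+/- mice with each other and staged by mating time and somite number. The labels give no more of the allele and do not say whether a sample is 1 embryo, so p-values measure only the spread between these RNA samples. Each sample was hybridised to 1 single-colour Agilent oligonucleotide array.

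The dermomyotome is the dorsal epithelium of the somite, and it supplies the muscle of the trunk and limbs. Its cells carry the paired-box transcription factors Pax3 and Pax7. When they commit to muscle they switch on basic helix-loop-helix factors of the MyoD family, which pair with E proteins and bind the E-box, a short DNA motif. In the mouse trunk Myf5 is the first of this family to come on, Myog follows as the myotome forms, and Myod1 comes on later. Jmjd3, now named Kdm6b, removes methyl groups from lysine 27 of histone H3, a mark of genes silenced by Polycomb proteins.

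Values below are log2 processed signals less the 75th percentile of the array, called normalised log2 signals, and a difference is Jmjd3-/- minus wild-type. The 75th percentile was 603 and 578 units on the Jmjd3-/- arrays and 598 and 627 units on the wild-type arrays. The probe for Kdm6b stood at 25.7% of the wild-type mean in Jmjd3-/-, a log2 difference of −1.96 (SE 0.12, limma adjusted p = 0.149). The sources used here do not say which part of the gene was deleted, so the probe checks the labels only if it lies there. The Jmjd3-/- arrays stood further apart from each other than the wild-type arrays did: 431 against 157 of the genes tested differed more than 2-fold within the genotype. Results that turn on Jmjd3-/- replicate 1 or replicate 9 are therefore given array by array. With 2 samples per genotype, the exact permutation test of a single gene cannot give a two-sided p below 0.333.

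Of the progenitor genes Pax7 was lower in both Jmjd3-/- samples than in both wild-type samples, and so were Myf5, Myf6, Myog and Acta1 among the muscle genes, though none of these differences passed after adjustment over all genes. Myog, Myf6 and Myf5 had log2 differences of −3.73, −2.25 and −1.29, Acta1 of −0.94 and Pax7 of −0.76. Pax3 (−0.14), Eya1 (0.14) and Myod1 (−0.11) lay near 0. The difference was below 0 for 7 of the 8 genes, against 53.1% of all genes tested. For 5 of the 8 genes both Jmjd3-/- arrays lay below both wild-type arrays, for Eya1 both lay above, and for Pax3 and Myod1 the genotypes overlapped. Of all genes tested, 23.7% lay below in this way and 23.0% above, 46.8% in all. Myf5, Myf6 and Myog entered the test through the wild-type arrays alone, which favours a value below 0, so these counts describe the 8 genes and support no direction. Of the 5 genes well above background on all 4 arrays, Pax7 and Acta1 lay below, Eya1 above, and Pax3 and Myod1 overlapped. At an adjusted p under 0.05 (limma, Benjamini-Hochberg over 13584 genes) 0 of the 8 genes passed, against 0.0368% of all genes (0.0147% lower and 0.0221% higher). At an unadjusted p under 0.05, 3 of the 8 passed, all lower (Pax7, Myf6 and Acta1), against 5.93% of all genes that were lower at that level. In whole tissue, fewer cells of a type and less RNA per cell cannot be told apart.

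**Figure D1:**
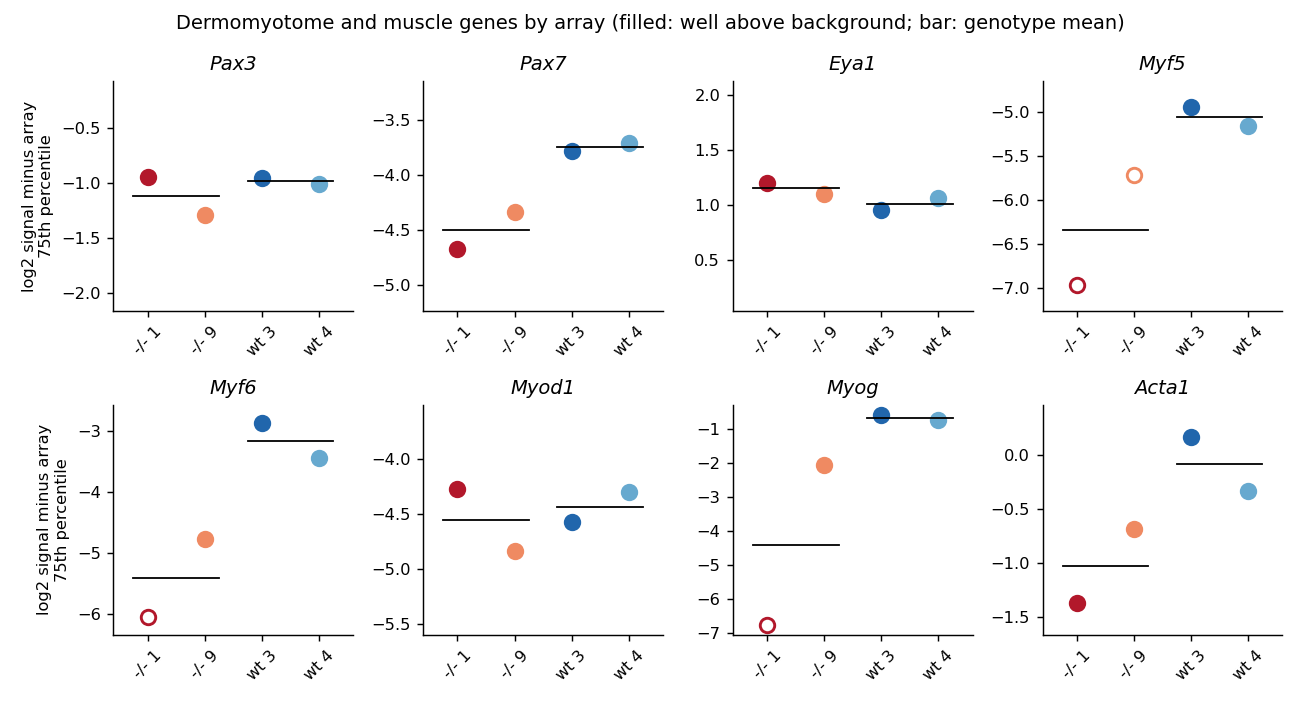
Normalised log2 signal (vertical axis, log2 units relative to the array's 75th percentile) of the 8 genes on each array, the Jmjd3-/- pair standing left of the wild-type pair; filled points were well above background and bars are genotype means. Pax7, Myf5, Myf6, Myog and Acta1 have both Jmjd3-/- points under both wild-type points, and the open points are Myf5 on both Jmjd3-/- arrays and Myf6 and Myog on replicate 1.

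The progenitor genes came first in the order. Pax3, which acts in dermomyotome, dorsal neural tube and neural crest, had a processed signal of 313 units in Jmjd3-/- replicate 1 and 235 in replicate 9, against 308 in wild-type replicate 3 and 312 in replicate 4. Replicate 9 alone stood apart, below the other 3 arrays, which lay close together. The log2 difference of Pax3 was −0.14 (SE 0.15, 95% interval −0.56 to 0.28, adjusted p = 0.754), and without replicate 9 it was 0.04. Each array carried 10 spots of the Pax3 probe. They ran from 214 to 258 units on Jmjd3-/- replicate 9 and from 286 to 344 units on replicate 1, and the lowest spot on either wild-type array was at 287 units. The gap between the Jmjd3-/- arrays was thus larger than the spread among spots of 1 array.

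Pax7, a close relative of Pax3 that is also active in the dorsal neural tube, gave a processed signal of 23.6 units in Jmjd3-/- replicate 1 and 28.6 in replicate 9, against 43.5 in wild-type replicate 3 and 47.9 in replicate 4. The scanner software's own error for these single spots was 4.38 and 5.10 units in Jmjd3-/- and 5.83 and 6.14 units in wild-type. The genotypes did not overlap. On the log2 scale the Jmjd3-/- arrays were 0.34 apart and the wild-type arrays 0.07 apart. Jmjd3-/- averaged 59.2% of the wild-type level, a log2 difference of −0.76 (SE 0.14, 95% interval −1.16 to −0.35, adjusted p = 0.329). It had the smallest p of the 8 genes, at rank 292 of all genes. The probe was dim, and with the normexp background correction, which adds 50 units before the log, the difference was −0.24.

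Eya1, a coactivator that works with homeodomain factors of the sine oculis family ahead of the myogenic genes, is also made in kidney and sensory placodes. Its processed signal was 1389 units in Jmjd3-/- replicate 1 and 1234 in replicate 9, against 1161 in wild-type replicate 3 and 1307 in replicate 4. Scaled to each array, both Jmjd3-/- values (1.20 and 1.09) lay just above both wild-type values (0.96 and 1.06). The log2 difference was 0.14 (SE 0.09, 95% interval −0.11 to 0.40, adjusted p = 0.613). This interval leaves out a reduction of the size seen for Pax7.

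The muscle determination factors Myf5 and Myf6 are neighbours on chromosome 10. Myf5, the earliest of the family in the trunk, had a processed signal of 4.84 units in Jmjd3-/- replicate 1 and 11.0 in replicate 9, against 19.4 in wild-type replicate 3 and 17.5 in replicate 4. The probe was not well above background on either Jmjd3-/- array and was so on both wild-type arrays, though only just. Of its 10 spots, 0 and 1 were well above background on the Jmjd3-/- arrays, against 8 and 8 on the wild-type arrays. With each Jmjd3-/- value raised to the lowest signal flagged well above background on its array, Myf5 was 1.30-fold lower in Jmjd3-/-. This is not a lower bound, since a probe above that signal can still fail the flag. Measured mean normalised log2 signals were −6.34 in Jmjd3-/- and −5.06 in wild-type. The fitted difference of −1.29 (SE 0.46, adjusted p = 0.455) is no bound either. The difference was −0.66 without replicate 1 and −1.91 without replicate 9, −0.17 with normexp and −0.38 with signals raised to the floor of each array.

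Myf6, also called Mrf4, which acts both in early determination and in later muscle fibres, had a processed signal of 9.19 units in Jmjd3-/- replicate 1 and 21.3 in replicate 9, against 82.2 in wild-type replicate 3 and 57.9 in replicate 4. It was well above background on replicate 9 and not on replicate 1, and on both wild-type arrays. Even the higher Jmjd3-/- array lay well under the lower wild-type array. Jmjd3-/- averaged 21.1% of the wild-type level, a log2 difference of −2.25 (SE 0.51, 95% interval −3.70 to −0.79, adjusted p = 0.339). Measured against the wild-type mean, replicate 1 differed by −2.89 and replicate 9 by −1.61. The wild-type arrays were 0.57 apart. With normexp the difference was −0.65.

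Myod1, the founding member of the family, differed less between the genotypes than Myf5, Myf6 and Myog. The Myod1 probe was dim on all 4 arrays, with normalised log2 signals of −4.83 to −4.27 against array floors of −5.58 to −5.29. Its processed signal was 31.2 units in Jmjd3-/- replicate 1 and 20.2 in replicate 9, against 25.1 in wild-type replicate 3 and 31.8 in replicate 4. The genotypes overlapped, and replicate 1, in which Myog and Myf6 were at background, was the highest of the 4 arrays after scaling. The log2 difference was −0.11 (SE 0.24, 95% interval −0.79 to 0.56, adjusted p = 0.886). The interval still allows a change of the size seen for Pax7, so a smaller reduction was not detectable with these arrays. The sign was not settled: the difference was 0.17 without replicate 9, −0.40 without replicate 1, and 0.03 with the median of the 10 spots in place of their mean. Single spots ran from 8.47 to 30.9 units on replicate 9 and from 23.0 to 66.1 units on wild-type replicate 4, so the spots of 1 array spread more widely than the genotypes differed.

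**Figure D2:**
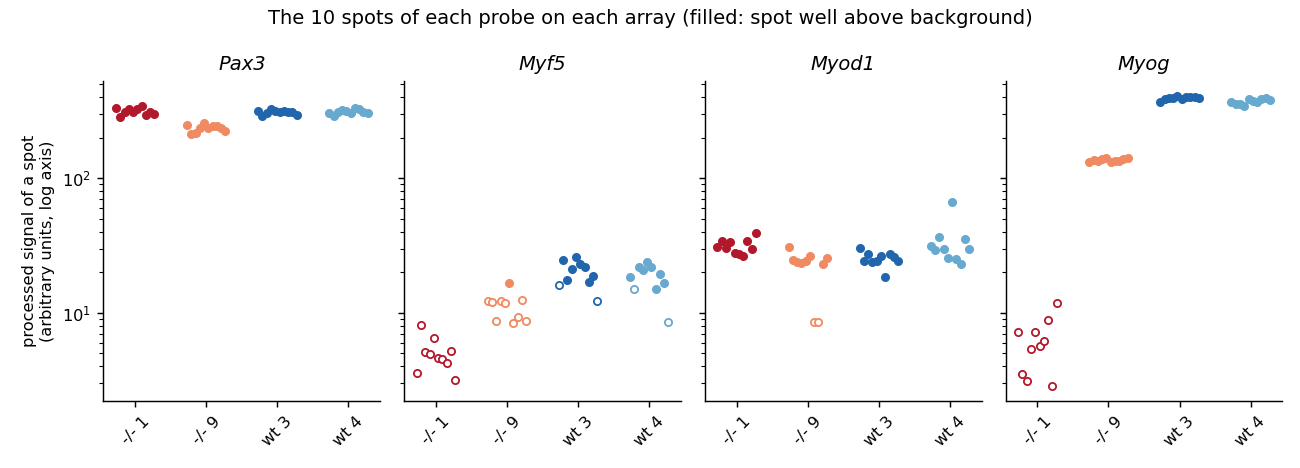
Processed signal (vertical axis, arbitrary units on a log scale) of each of the 10 spots of the Pax3, Myf5, Myod1 and Myog probes, by array, the Jmjd3-/- pair standing left of the wild-type pair; filled spots were well above background. The Myog spots form 3 separate levels, near 5.90 units on Jmjd3-/- replicate 1, 136 units on replicate 9 and 371 to 395 units on the wild-type arrays, whereas the Myod1 spots of all 4 arrays overlap.

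Myog, whose product myogenin drives the step at which myoblasts differentiate, had the most uneven Jmjd3-/- arrays of these genes. Its processed signal was 5.61 units in Jmjd3-/- replicate 1 and 136 in replicate 9, against 394 in wild-type replicate 3 and 371 in replicate 4. Replicate 1 was at background, where 0 of its 10 spots were well above it, and replicate 9 was clearly measured but well under both wild-type arrays. On replicate 9 the spots ran from 132 to 142 units, against 368 to 411 units on wild-type replicate 3 and 343 to 397 units on wild-type replicate 4. The wild-type means were thus 0.15 apart on the log2 scale, while the Jmjd3-/- arrays were 4.66 apart. The log2 difference was −3.73 (SE 1.70, 95% interval −8.55 to 1.08, adjusted p = 0.519), and its size rests on a replicate 1 value that was not above background. Without replicate 1 the difference was −1.40 (SE 0.10, adjusted p = 0.165), and without replicate 9 it was −6.07 (SE 0.10, adjusted p = 0.0465), which passed but rests on that same value alone. In replicate 9 alone, Myf6 differed more from wild-type than Myog did. In both of these fits the lone Jmjd3-/- array was assumed to vary as the wild-type arrays do. Over both Jmjd3-/- arrays, raising dim signals to the floor of each array gave −3.15, and normexp gave −1.86.

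Acta1 encodes skeletal muscle actin, a product of differentiated muscle that embryonic heart also makes. It had a processed signal of 233 units in Jmjd3-/- replicate 1 and 359 in replicate 9, against 672 in wild-type replicate 3 and 496 in replicate 4. All 4 arrays were well above background, and the genotypes did not overlap. Jmjd3-/- averaged 52.1% of the wild-type level, a log2 difference of −0.94 (SE 0.32, 95% interval −1.84 to −0.04, adjusted p = 0.434). The wild-type arrays were 0.50 apart, further than the higher Jmjd3-/- array was from the lower wild-type array. The difference was −0.60 without replicate 1 and −1.28 without replicate 9. Actin genes are nearly alike in their coding parts, and the files do not give the probe's sequence, so signal from other actins was not tested.

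Both differentiation genes have E-boxes close to their start, which is why their promoters are shown. Of the 9 genes, 4 have a promoter sequence in the RefSeq table used (build GRCm38.p6): Pax7, Myf5, Myog and Acta1. Each sequence runs from 250 bases before the gene's start to 50 after it, 5′ to 3′ on the gene's strand. Capitals mark the E-box CANNTG and, in Acta1, the CArG box, which binds serum response factor, and the letters TATAAA of the TATA box. Both strands were searched, also for a MEF2 box.
Myog, chr1:134289754-134290053, + strand: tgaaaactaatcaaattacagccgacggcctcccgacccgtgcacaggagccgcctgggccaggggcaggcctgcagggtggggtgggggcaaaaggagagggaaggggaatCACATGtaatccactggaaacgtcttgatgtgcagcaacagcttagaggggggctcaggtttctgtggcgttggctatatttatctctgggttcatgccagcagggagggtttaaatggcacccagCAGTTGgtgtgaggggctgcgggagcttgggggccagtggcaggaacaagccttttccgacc
Acta1, chr8:123894726-123895025, − strand: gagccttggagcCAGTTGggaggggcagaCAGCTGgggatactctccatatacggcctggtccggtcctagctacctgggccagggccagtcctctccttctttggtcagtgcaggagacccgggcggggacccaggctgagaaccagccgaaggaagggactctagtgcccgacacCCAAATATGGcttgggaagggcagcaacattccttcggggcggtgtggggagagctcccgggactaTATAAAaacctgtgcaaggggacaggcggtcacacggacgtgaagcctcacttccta
Positions are relative to the annotated start of the gene, which was not checked against measured transcription starts. The Myog window held 2 E-boxes, from −138 to −133 and from −12 to −7 relative to the start. The Acta1 window also held 2, from −238 to −233 and from −221 to −216, the second of the form CAGCTG. It held 1 CArG box, CCAAATATGG, from −73 to −64, and 1 TATAAA, from −7 to −2. CANNTG was present in 72.3% of all 32851 promoter windows of this length and its form CAGCTG in 16.3%. The CArG box was present in 1.63%, TATAAA in 13.6% and the MEF2 box as searched in 3.19%. The Pax7 window held none of these motifs, and the Myf5 window held 1 TATAAA, from 20 to 25 after the start. None of the 4 windows held the MEF2 box in the 1 form searched. The Myog window holds ctatatttat, which differs from that form in its last base only. Other forms were not searched. A match describes the sequence and does not show that a factor binds there.

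**Figure D3:**
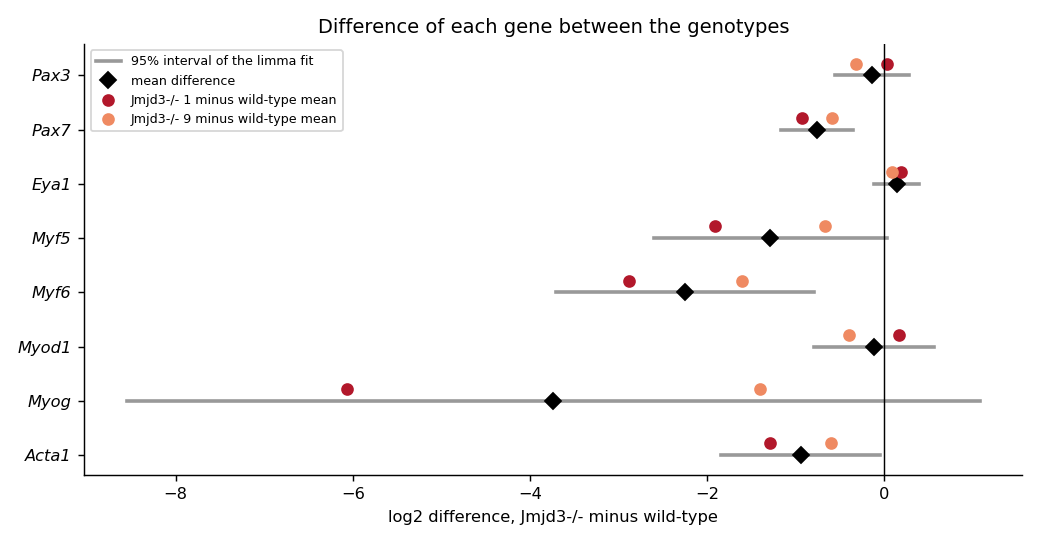
Log2 difference of each gene, Jmjd3-/- minus wild-type (horizontal axis), from the progenitor genes at the top to Acta1 at the bottom; diamonds are mean differences, grey bars 95% intervals of the limma fit, and circles the 2 Jmjd3-/- arrays against the wild-type mean. Both circles lie under 0 for Pax7, Myf5, Myf6, Myog and Acta1, with replicate 1 the lower of the 2 each time.

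In all 5 genes whose genotypes did not overlap downwards, replicate 1 was the lower Jmjd3-/- array. Over all genes tested, too, replicate 1 stood further from wild-type. It differed more than 2-fold from wild-type replicates 3 and 4 for 806 and 706 genes, against 354 and 333 for replicate 9. Whether this order is particular to the muscle genes was not tested. Replicate 1 minus replicate 9 was −0.34 for Pax7, −0.69 for Acta1, −1.24 for Myf5, −1.28 for Myf6 and −4.66 for Myog. For Pax3 and Myod1 the order was the other way, at 0.35 and 0.56. Over the 8 genes the median gap between the Jmjd3-/- arrays was 0.62, against 0.16 over all genes tested. Between the wild-type arrays it was 0.18 for the 8 genes and 0.08 for all. Several of the 8 probes were dim, and gaps were not compared among genes of like signal. The median difference of the 8 genes was −0.85, against −0.01 for all genes tested. This median is a description only, since Myf5, Myf6 and Myog entered the test through the wild-type arrays. Over the 5 genes well above background on all 4 arrays it was −0.14.

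Genes of the contractile apparatus and the neuromuscular junction, beyond Acta1, were lower in most cases. Of 32 listed genes 26 were tested, 22 of them with a difference below 0, against 53.1% of all genes tested. The median was −0.45. At an unadjusted p under 0.05, 7 were lower and 0 higher, against 5.93% and 5.15% of all genes, and 0 passed after adjustment, against 0.0368% of all genes. Myh3, the embryonic myosin heavy chain, differed by −3.05 (SE 0.32, adjusted p = 0.187), or −1.28 with normexp, and its other probe by −2.66. Myh3 was well above background on 1 of the 2 Jmjd3-/- arrays and on both wild-type arrays. It measured −5.17 in Jmjd3-/- replicate 1 and −5.28 in replicate 9, against −1.76 in wild-type replicate 3 and −2.60 in replicate 4 as normalised log2 signals, so here the Jmjd3-/- arrays lay together. Tnnc2, fast skeletal troponin C, measured −3.23 in Jmjd3-/- replicate 1 and −2.23 in replicate 9, against 0.34 in wild-type replicate 3 and −0.18 in replicate 4, a difference of −2.82 (SE 0.42, adjusted p = 0.275). Chrng, the fetal subunit of the muscle acetylcholine receptor, differed by −2.51 (SE 0.45, adjusted p = 0.326) (−1.02 with normexp) and, by a probe too dim to test, by −0.57. Like Myh3, Chrng was well above background on 1 of the 2 Jmjd3-/- arrays and on both wild-type arrays. Both genes entered the test through the wild-type arrays alone, which favours a value below 0. Des, which encodes the filament protein desmin, differed by −0.32 (SE 0.08). Leaving out Jmjd3-/- replicate 1 gave a median of −0.28, and leaving out wild-type replicate 3 gave −0.29. Dropping Jmjd3-/- replicate 9 put this median at −0.44, and dropping wild-type replicate 4 put it at −0.61. The wild-type arrays themselves differed by 0.36 in that median, with replicate 3 higher.

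Other regulators of the dermomyotome and of muscle progenitors shifted by less. Of 22 listed genes 20 were tested, and 15 were lower, against 53.1% of all genes tested, with a median of −0.23. At an unadjusted p under 0.05, 7 were lower and 1 was higher, against 5.93% and 5.15% of all genes, and 0 passed after adjustment. Leaving out 1 array at a time moved this list's median between −0.34, for Jmjd3-/- replicate 9 dropped, and −0.17, for Jmjd3-/- replicate 1 dropped. Dach2, a cofactor in the network of Pax3 and Eya in chick somites, differed by −0.67 (SE 0.08, adjusted p = 0.215). Mef2c, a partner of the myogenic factors, differed by −0.73 (SE 0.18), the homeobox gene Meox2 by −0.41 (SE 0.09) and Eya4 by −0.37 (SE 0.10), with 0.13 for a dim second probe of Eya4. Of the dimer partners and inhibitors of the myogenic factors, 14 of 18 were lower, against 53.1% of all genes tested. Their median was −0.12, and −0.05 without Jmjd3-/- replicate 1. In this list 3 were lower and 1 was higher at an unadjusted limma p under 0.05, against 5.93% and 5.15% of all genes. After adjustment 0 passed. The inhibitors Twist1 and Twist2 differed by −0.54 (SE 0.18) and −0.56 (SE 0.15), and the Notch targets Heyl and Hey1 by −0.48 (SE 0.12) and 0.48 (SE 0.16). Without Jmjd3-/- replicate 1, Twist1 differed by −0.31 and Hey1 by 0.27. E protein genes differed little, with Tcf3 at −0.06, Tcf12 at −0.22 and Tcf4 at −0.0022, named after their values were seen.

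Among signals that act on the somite, 10 of 19 tested genes were higher and 9 lower, with a median of 0.02 whose sign turned under several settings, such as −0.05 with normexp. Wnt3a, made in the dorsal neural tube and the tail bud, differed by 1.42 (SE 0.25, adjusted p = 0.326), and Fgf8 of the tail bud by 0.87 (SE 0.20). Nog, which encodes the BMP inhibitor noggin, differed by 0.38 (SE 0.09). For Gli2, an effector of Hedgehog signals, the brighter probe gave 0.22 (SE 0.10) and the other −0.26. At an unadjusted p under 0.05, 3 of these genes were higher and 0 lower, against 5.15% of all genes that were higher at that level.

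**Figure D4:**
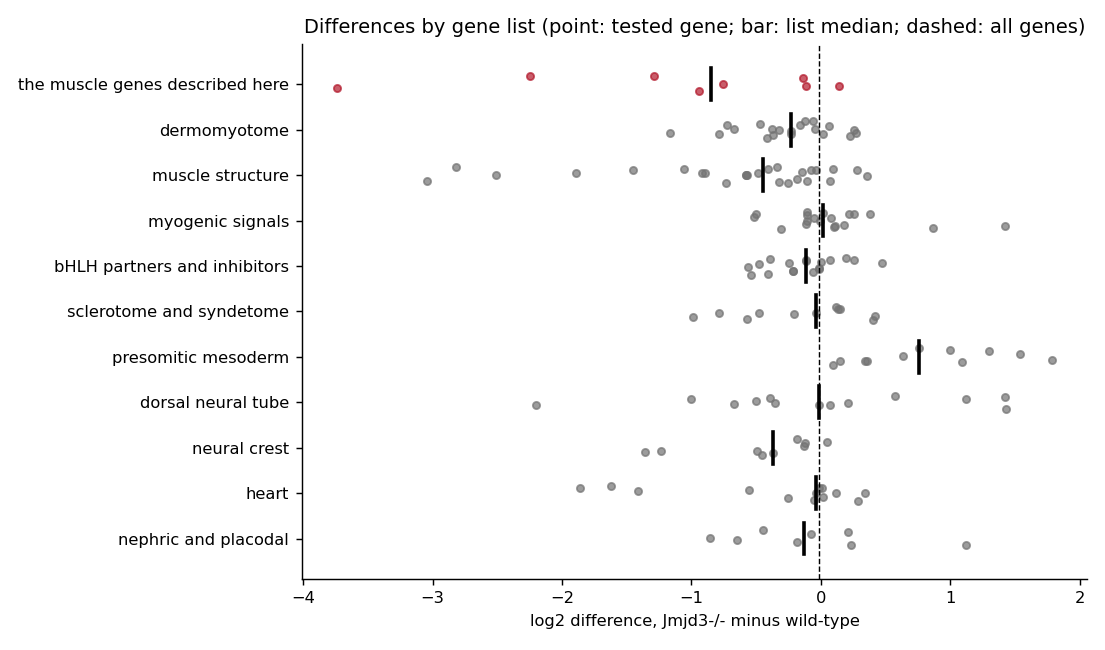
Log2 difference, Jmjd3-/- minus wild-type (horizontal axis), of every tested gene of the muscle genes described here (top) and of the other gene lists; bars are list medians and the dashed line is the median of all genes tested. The median of the 8 genes is −0.85, that of muscle structure genes −0.45 and that of presomitic genes 0.76.

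Markers of other tissues in the sample also differed in value between the genotypes. In each of the lists below 0 genes passed after adjustment, against 0.0368% of all genes. The part of these tissues in the muscle differences was not tested. Of all 13584 genes tested, 7218 were lower and 6366 higher. Presomitic genes, expressed behind the youngest somite, were higher in 11 of 11 tested cases (12 listed), with a median of 0.76. Without replicate 1 it was 8 of 11 with a median of 0.54, and without replicate 9 it was 9 of 11 with 1.26. Summed over the list on a linear scale, in units of the array's 75th percentile, they reached 60.7 in Jmjd3-/- replicate 1 and 33.4 in replicate 9, against 17.7 in wild-type replicate 3 and 19.3 in replicate 4. Replicate 1, which was lowest for Myog, Myf5, Myf6, Pax7 and Acta1, was thus highest for this list. Tbx6 and Msgn1, which specify presomitic mesoderm, differed by 1.54 (SE 0.35) and 1.78 (SE 0.55), and the Notch ligand genes Dll1 and Dll3 by 1.00 (SE 0.22) and 1.30 (SE 0.33). Without replicate 1, Msgn1 differed by 1.03 and Dll3 by 0.86. Sclerotome and tendon genes had 6 lower and 5 higher of 11 tested (12 listed), with summed signals of 29.6 and 29.4 in Jmjd3-/- and 26.9 and 28.2 in wild-type. Tbx18 and Pax9 differed by −0.98 (SE 0.12) and −0.79 (SE 0.15), and Foxc1 and Foxc2 by 0.40 (SE 0.11) and 0.42 (SE 0.13).

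Heart markers bear on Acta1 and the sarcomere genes. Of 14 listed, 13 were tested, 8 of them lower and 5 higher, with a median of −0.04. The 4 genes described below have the lowest p of this list, and all 4 were lower. The summed heart signal came to 4.72 in Jmjd3-/- replicate 1 and 6.76 in replicate 9, against 10.3 in wild-type replicate 3 and 6.67 in replicate 4, so replicate 9 was at the level of wild-type replicate 4. Wild-type replicate 3 was the highest array for this list, as it was for Acta1 and Myf6. Nkx2-5, a regulator of heart formation, differed by −1.86 (SE 0.29), or −0.57 with normexp, and was well above background on 1 of the 2 Jmjd3-/- arrays. Also lower in value were the atrial light chain gene Myl7, at −1.62 (SE 0.40), and Tnnt2, cardiac troponin T, at −1.41 (SE 0.33). Gata4 differed by −0.56 (SE 0.17), with −2.02 for its dimmer probe. Of the heart list Ryr2 was not tested because its probe was too dim.

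Pax3 and Pax7 are shared with the dorsal neural tube and Pax3 with neural crest. Dorsal neural tube genes were mixed, with 7 lower and 6 higher of 13 tested (16 listed), and summed signals of 15.7 and 17.2 in Jmjd3-/- and 16.4 and 15.7 in wild-type. Zic1, which is also expressed in dorsal somites, differed by −2.20 (SE 0.77) and, by its other probe, by −2.18. Without Jmjd3-/- replicate 1 the brighter probe gave −1.15. Lhx1 and Lhx5 differed by 1.12 (SE 0.21) and 1.43 (SE 0.27). Neural crest genes were lower in 8 of 9 tested cases (11 listed), against 53.1% of all genes tested. Their median was −0.37, and −0.12 without Jmjd3-/- replicate 1. In sum these genes gave 8.91 in Jmjd3-/- replicate 1 and 11.7 in replicate 9, against 12.8 in wild-type replicate 3 and 11.6 in replicate 4. Ngfr, Tfap2b and Foxd3 differed by −0.37, −1.36 and −0.50, and other probes of Tfap2b by −0.35 and, where dim, 0.10. Without Jmjd3-/- replicate 1, Tfap2b differed by −0.67 and Foxd3 by −0.12. For Eya1, nephric and placodal markers were 5 lower and 3 higher of 8 tested (12 listed), with summed signals of 4.70 and 3.95 in Jmjd3-/- and 4.03 and 3.76 in wild-type. Lhx1, which is also on this list, differed by 1.12 as given above. Six2, Gdnf and Wt1 differed by −0.86 (SE 0.07), −0.45 (SE 0.11) and −0.65 (SE 0.21), and Wt1 by −0.43 without Jmjd3-/- replicate 1.

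**Figure D5:**
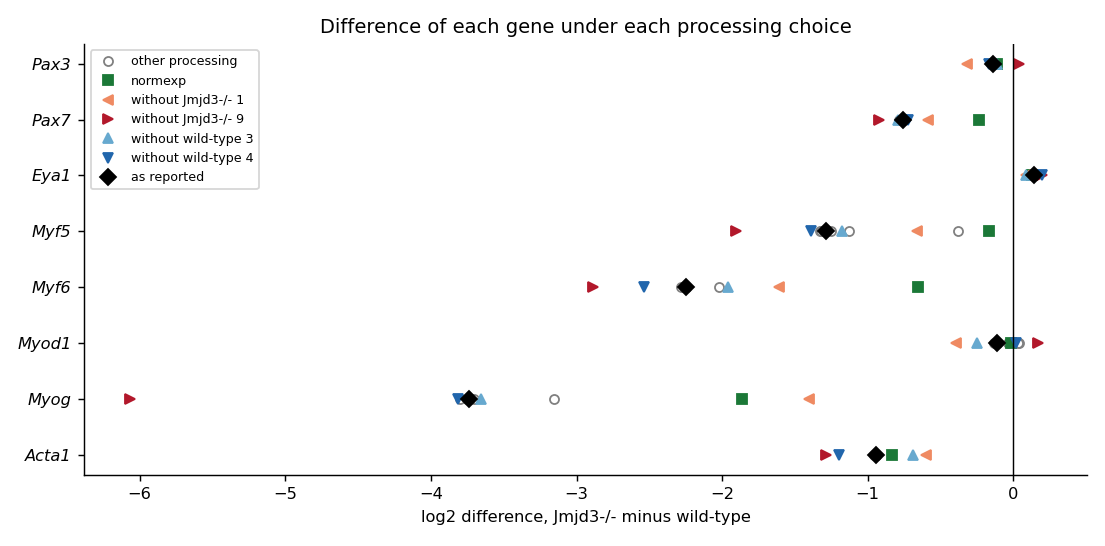
Log2 difference of each gene, Jmjd3-/- minus wild-type (horizontal axis), as reported (diamond) and under each other processing choice, including each array left out in turn. Myog spans −6.07 to −1.40 and stays below 0 throughout, as do Pax7, Myf5, Myf6 and Acta1, whereas Pax3 and Myod1 fall on both sides of 0.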

How the data were processed

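Per the labels' protocols, Cy3-labelled cRNA made from total RNA was put on Agilent arrays. Spot intensity in the deposited scanner files was written by Agilent Feature Extraction 10.7.3.1, version per the submitters' processing notes, with background subtracted and no scaling between arrays. The submitters also deposited a table of log2 values. It matched the scanner values, scaled to the 75th percentile of each array and centred on the wild-type mean, within 0.01 for 99.9% of probes. This match is how its scale, centring and direction were found, and a column's median was −0.02 for Jmjd3-/- replicate 1, 0.05 for replicate 9, 0.02 for wild-type replicate 3 and −0.02 for replicate 4.

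Of 45018 spots, 1639 control spots were left out, replicate spots were averaged per probe on the log2 scale, and each array's 75th percentile over 41174 probes was subtracted. The RefSeq table of GRCm38.p6 named 26690 probes by accession, 5 by symbol and 23 by synonym. Per array, 59.8% to 63.0% of probes exceeded background clearly, and no probe was saturated. The probe with the highest mean signal stood for a gene. Genes were tested where that probe was well above background on the 2 arrays of either genotype. limma 3.58.1 in R 4.3.3 (lmFit, eBayes) compared the genotypes with no covariate, since no sample number is shared. Its prior had 1.79 degrees of freedom, and it was tested on simulated data. The floor of an array was its lowest signal well above background. The planned normexp correction used the median spot signal, since the files hold no mean. The genes and lists were chosen with earlier results of these data known. The text names all 9 genes, Kdm6b and up to 4 genes of each list by p, of which 1 is not reported here. The number of arrays limits the precision. The arrays share 1 slide, with Jmjd3-/- at its outer positions, so position and genotype cannot be told apart. The MEF2 and TATAAA searches were at first left out once their matches had been seen, and were then put back, so every motif searched is given.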

Additional observations from a re-analysis of the deposited data

How the results depend on the processing

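Over 15 alternatives, 0 of the 8 genes passed at an adjusted p under 0.05, except that Myog passed without Jmjd3-/- replicate 9, so the count over arrays left out ran from 0 to 1. Among all genes 5 passed as reported. The count was 0 with quantile normalisation, 0 with no filter on dim probes, 0 with a filter on all 4 arrays, 0 with signals raised to the floor, 2 with normexp and 3 with an intensity trend, and from 0 to 167 over arrays left out, with 167 without Jmjd3-/- replicate 9. The median difference of the 8 genes was −0.20 with normexp and −0.14 with the filter on all 4 arrays, which left 5 genes, and it ran from −1.11 to −0.59 over arrays left out. The sign of Myod1 turned with the deposited table (0.042) and the median of spots (0.0294). Over arrays left out, Myod1 ran from −0.40 to 0.17, above 0 without Jmjd3-/- replicate 9 or wild-type replicate 4 (0.02), and Pax3 from −0.315 to 0.0364, above 0 without Jmjd3-/- replicate 9. Gli2 was −0.0185 with the mean of its probes. For Myod1, Pax3 and Gli2 the cause was not tested. Normexp adds 50 units before the log, which narrows differences of dim probes such as Myf5. The median of spots and the floor were chosen after seeing the data. No paired analysis was possible because the genotypes share no replicate number.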
